A study of Bombus terrestris with 33 samples.

Results

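In the brains of bumblebee queens, 100 contigs were picked out because their level differed by outcome in opposite directions before and after hibernation. They were taken from 3924 contigs that could qualify, of 10672 in the count table. In 52 of them the level was higher in queens that failed to mate than in queens that mated, and higher in queens with developed ovaries than in queens without. In the other 48 both differences ran the other way. The contigs were chosen on the group means and the within-group standard deviations (SD) of these libraries, so every difference between groups given for them is a description. Counts of contigs that passed a test of such a difference are given further on beside the same count over the whole table, and are not evidence for it.

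The data are mRNA counts from single brains of 33 Bombus terrestris queens (the buff-tailed bumblebee), raised from commercial colonies, with 1 library per queen. FM (failed mated, n = 9) queens were still virgin gynes: like all the queens they first met males when 5 days old, and they were exposed to males, handled and sampled like the mated queens, but did not mate. SM (successfully mated, n = 8) queens mated and were frozen 3 days later, and neither FM nor SM queens were hibernated. FR (failed reproductive, n = 8) and SR (successfully reproductive, n = 8) queens had both mated, spent 8 weeks at 5 °C and lived 1 month more, and were told apart by undeveloped ovaries in FR and ovaries with mature eggs in SR. Colonies C2 and C3 supplied queens to all 4 groups, colony C7 to FM and SM alone, and colony C9 to FR and SR alone. The estimated age on the labels, which carries no unit and is read here as days, ran from 6 to 27 in FM, 11 to 20 in SM, 91 to 102 in FR and 94 to 97 in SR queens. SM and FM queens therefore differ in mating at one stage, while SR and FR queens differ in ovary development after a shared mating and hibernation. Mating itself did not differ between the groups after hibernation, and FR and SR queens were sorted by what their ovaries had done. FM and SM queens were likewise sorted by whether they had mated when exposed to males.

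A bumblebee queen lives through a yearly cycle on her own for much of it. She mates as a young adult, passes the cold season in diapause, and then founds a nest, where her ovaries mature and she lays the eggs of her first workers. In bumblebees, juvenile hormone is known to promote ovary growth, and the brain takes part in its control through neurosecretory cells that connect to the glands that release it. Brain transcripts at these steps therefore come from an organ that both senses the mating and social setting and signals to the reproductive system.

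Total counts ran from 42858092 to 61560882 per library. Levels are in CPM, the count scaled to the total of its library. A value at 0 allows a level of up to 3 counts, or 0.0503 to 0.0806 median-scaled CPM, defined below, depending on the library. Such limits cover counting error only. The count table pairs its contigs with no gene names, and 0 of the identifiers matched the reference gene table, so each contig is given by its identifier alone and the brain label was not checked against marker genes. The measurements are of bulk tissue, in which fewer cells of a type and less RNA per cell cannot be told apart. Levels below are CPM after each library was brought to the same median over contigs of 5 CPM or more on average, called median-scaled CPM. Contigs differ in length, so levels are compared between queens and not between contigs.

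The choice of contigs ran on a log2 level, log2(CPM + 1) minus the library's median. For each eligible contig, of 1 CPM or more on average and outside the 100 most abundant, the 4 group means were put in order and the largest gap between neighbours was found. In 281 contigs, 7.16% of those eligible, that gap parted FM and SR from SM and FR. The same gap set FR apart from the other groups in 1742 contigs (44.4%), SR in 677, SM in 397 and FM in 309. It parted queens before from queens after hibernation in 279 contigs, and both successful groups from both failed groups in 239. The 281 contigs were ranked by the gap divided by the mean within-group SD, and the first 100 were taken. Their ratio ran from 0.770 to 1.36 with a median of 0.913, so the gap was often about the size of the spread between queens of a group. By comparison, the contig ranked 100 among those that set FR apart had a ratio of 1.95. The ratio at that rank was 1.21 for SR, 0.8955 for SM and 0.749 for FM set apart. It was 0.813 among contigs that parted the stages and 0.654 among those that parted success from failure. The ratio at a given rank depends on how many contigs share a split, and these numbers differ.

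**Figure D1:**
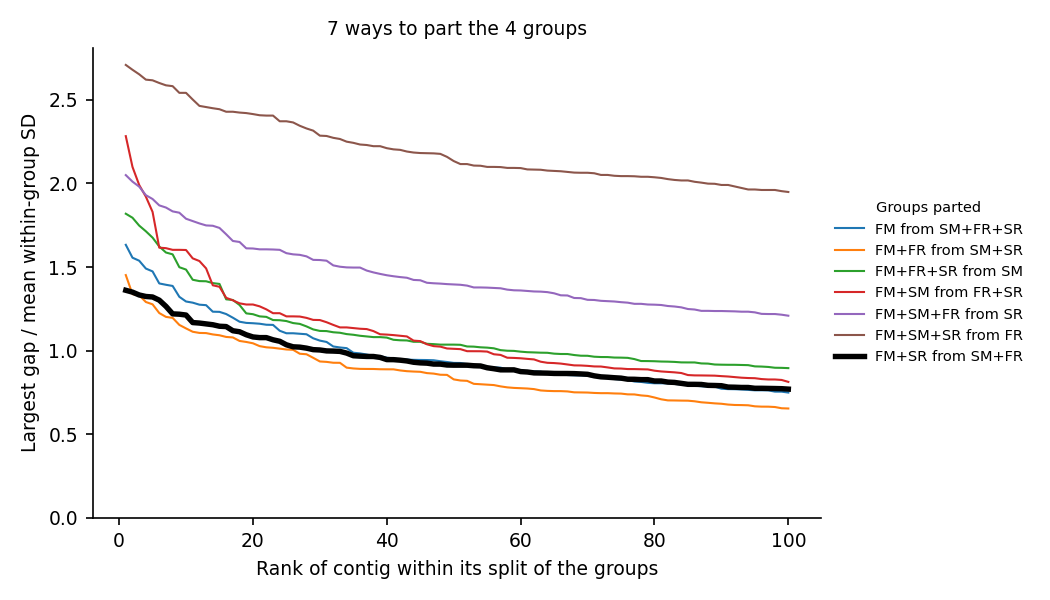
The largest gap between group means divided by the mean within-group SD (y axis, no unit) against rank (x axis) for the 100 highest contigs of each of the 7 ways to part the 4 groups. The black line, FM and SR from SM and FR, falls from 1.36 to 0.770 and lies below the line of FR alone, which falls from 2.71 to 1.95.

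The last contig taken and the first left out were close. Contig8049, ranked 100, had a ratio of 0.7699, and Contig1405, the next, had 0.7694. Contig8049 is a contig of low abundance, at 1.48 ± 0.406 (SD, n = 9) median-scaled CPM in FM, 1.25 ± 0.175 (SD, n = 8) in SM, 1.23 ± 0.189 (SD, n = 8) in FR queens and 1.63 ± 0.309 (SD, n = 8) in SR queens. Contig1405 shared its pattern at a much higher level, at 410 ± 40.1 in FM, 378 ± 29.8 in SM, 364 ± 24.0 in FR and 396 ± 7.87 in SR queens. The list has no natural edge at 100, and the contigs ranked 98, 99, 102 and 103 had ratios of 0.7734, 0.7725, 0.7694 and 0.7671.

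The 100 contigs were ordinary in abundance. Their mean CPM ran from 1.03 to 1462 with a median of 32.0, against 27.1 over the eligible contigs, with 20 of them under 5 CPM and 36 at 100 CPM or more. The gap was at least 0.5 on the log2 scale in 16 contigs, at least 1 in 2 contigs, and under 0.2 in 51. The absolute SM minus FM difference had a median of 0.25 on the log2 scale, against 0.08 over the eligible contigs, and the absolute SR minus FR difference a median of 0.29, against 0.20. The difference after hibernation was the larger one in 73 of the 100 contigs, 39 of the 52 and 34 of the 48. Over the eligible contigs its median was also the larger, at 0.20 against 0.08. The share of eligible contigs in which it was larger is not given, so the count is not read as particular to the list.

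**Figure D2:**
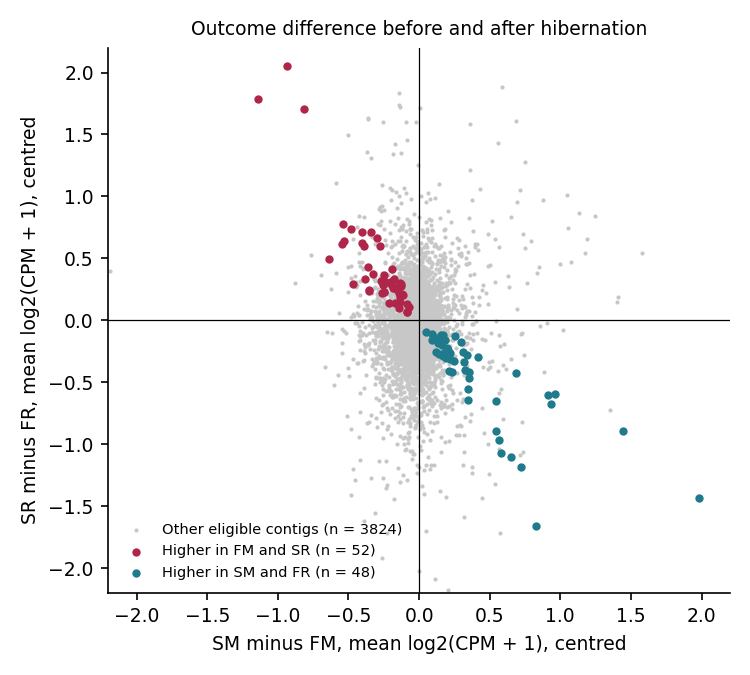
The SR minus FR difference (y axis) against the SM minus FM difference (x axis) of group means on the centred log2(CPM + 1) scale, 1 point per eligible contig. The 52 contigs higher in FM and SR lie in the upper left, where the rule put them, and the 48 higher in SM and FR in the lower right. The axes end just past the last of the 100, which leaves out 9 of the 3924 contigs and 0 of the 100.

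Within the 52 contigs higher in FM and SR, the median SM minus FM difference was -0.24 and the median SR minus FR difference 0.29 on the log2 scale. The level in SR and FM queens was similar, with a median SR minus FM difference of 0.02, and so was that of FR and SM queens, with a median FR minus SM difference of -0.05. SR was the highest group in 36 of these contigs and FM in 16, while FR was the lowest in 40 and SM in 12. Within the 48 contigs higher in SM and FR, the median differences were 0.25 for SM minus FM and -0.30 for SR minus FR. FR was the highest group in 29 of them and SM in 19, and the lowest place was shared almost evenly, with SR lowest in 25 and FM in 23. The FM and SR similarity is part of what the rule asked for.

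FM queens were the most variable of the 4 groups in these contigs and SR queens the least. The median within-group SD of the log2 level was 0.289 in FM, 0.215 in SM, 0.213 in FR and 0.164 in SR queens. FM was also the most variable and SR the least over all eligible contigs, at 0.251 in FM, 0.189 in SM, 0.198 in FR and 0.161 in SR queens.

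Contig2044 had the highest ratio among the contigs higher in FM and SR and was also among the most abundant of them. It stood at 810 to 2362 median-scaled CPM in FM queens (median 1775), 756 to 1580 in SM (median 1007), 760 to 1804 in FR (median 929) and 1456 to 2050 in SR (median 1662). FR replicate 37, at 1804, lay inside the SR range, and the other 7 FR queens lay below it, replicate 32 being the nearest at 1383. Among FM queens, replicates 4, 10 and 15 had 1130, 973 and 810 and lay within the SM range, as did replicate 11 at 1518, below the highest SM value of 1580. The other 5 had 1775 or more. The group means were 1569 ± 505 (SD, n = 9) in FM, 1093 ± 265 (SD, n = 8) in SM, 1054 ± 358 (SD, n = 8) in FR queens and 1698 ± 212 (SD, n = 8) in SR. The log2 difference in the edgeR fit, which includes colony, was -0.50 ± 0.18 (SE) for SM minus FM and 0.69 ± 0.19 (SE) for SR minus FR.

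Contig1491 was the next by that ratio. Its range was 10.5 to 15.0 median-scaled CPM in FM queens (median 12.3), 8.38 to 12.2 in SM (median 9.16), 8.02 to 15.3 in FR (median 10.5) and 10.9 to 14.2 in SR (median 12.5). All 4 ranges overlapped, and the highest value of all 33 queens was that of an FR queen, replicate 32. The means were 12.5 ± 1.66 (SD, n = 9) in FM, 9.62 ± 1.40 (SD, n = 8) in SM, 10.6 ± 2.20 (SD, n = 8) in FR queens and 12.5 ± 1.29 (SD, n = 8) in SR queens, and the fitted log2 difference was -0.37 ± 0.11 (SE) for SM minus FM and 0.31 ± 0.11 (SE) for SR minus FR.

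Contig1058 had the highest ratio of all 100, among the contigs higher in SM and FR. It ranged from 134 to 283 median-scaled CPM in FM queens (median 159), 178 to 309 in SM (median 209), 163 to 284 in FR (median 234) and 148 to 206 in SR (median 170). FM replicate 4, at 283, was far above the other FM queens, of which the next had 210, and FR replicate 37 had the lowest FR value, below the SR median. Contig4523, ranked after it, ranged from 80.9 to 120 in FM (median 98.9), 100 to 121 in SM (median 112), 99.2 to 123 in FR (median 118) and 85.9 to 105 in SR queens (median 93.9). FM replicate 4 again had the highest FM value and FR replicate 37 the lowest FR value, and the FR and SR ranges met only between 99.2 and 105. In Contig1058 the means were 177 ± 48.7 (SD, n = 9) in FM, 224 ± 50.1 (SD, n = 8) in SM, 232 ± 36.5 (SD, n = 8) in FR queens and 172 ± 16.4 (SD, n = 8) in SR queens.

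**Figure D3:**
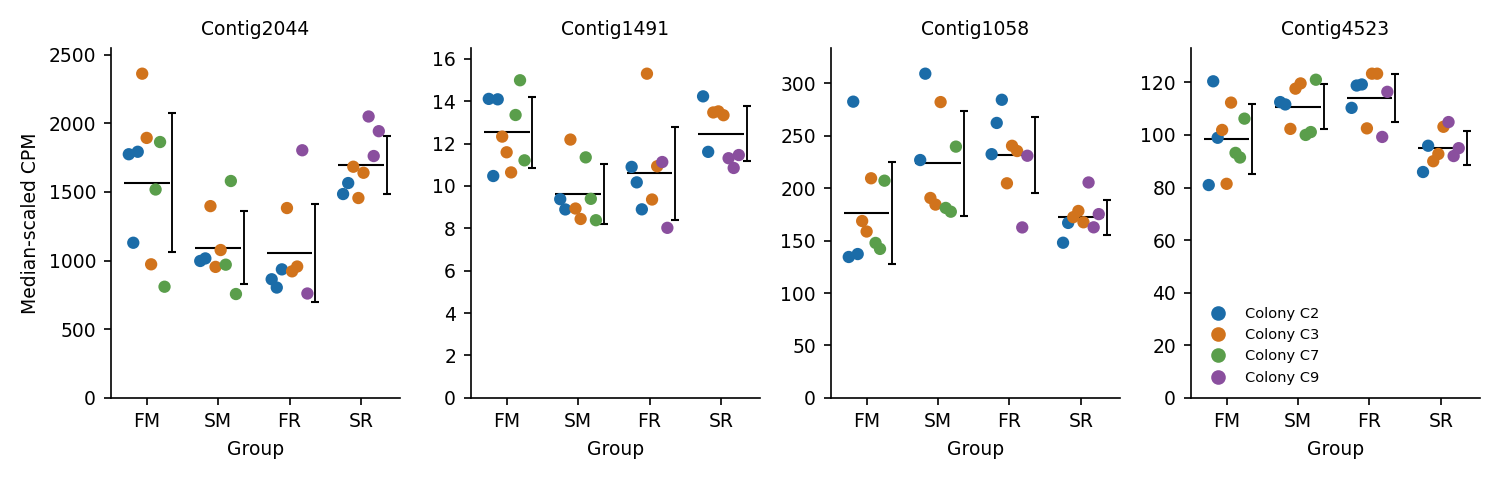
Median-scaled CPM (y axes, from 0) of the 2 contigs with the highest ratio in each direction, 1 point per queen coloured by colony, with the group mean as a line and its SD as the bar beside it. Contig2044 and Contig1491 are higher on average in FM and SR, Contig1058 and Contig4523 in SM and FR, and in each panel single FM and FR queens lie within the range of the opposite groups.

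The largest differences belonged to contigs of low or moderate abundance with a wide spread. Contig44 was listed at 0 to 10.6 median-scaled CPM in FM (median 3.16), 0 to 9.94 in SM (median 0.0168), 0 to 1.35 in FR (median 0.0365) and 0.986 to 7.30 in SR queens (median 2.02). Every SR queen had 45 reads or more of it, while 4 of 8 SM and 3 of 8 FR libraries had no read, and the SM and FR medians lie below the limit that a count of 0 allows. SM replicate 19 and FR replicate 37 were the SM and FR queens with the most, at 9.94 and 1.35, and no fold is given for a contig with groups at that limit. Contig2776 behaved in a similar way at a higher level, at 4.18 to 69.6 in FM (median 46.9), 2.54 to 61.5 in SM (median 10.8), 4.33 to 39.7 in FR (median 6.61) and 16.9 to 64.4 in SR queens (median 44.0). SM replicates 19, 25 and 23 (61.5, 52.9 and 17.0) and FR replicate 37 (39.7) lay within its SR range, and the other SM and FR queens lay below it.

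Contig9314 also fell in this class and had the largest fitted SM minus FM difference among the contigs higher in FM and SR, at -1.21 ± 0.58 (SE) on the log2 scale. Its median was 15.8 median-scaled CPM in FM, 6.59 in SM, 3.19 in FR and 13.4 in SR queens, with ranges of 2.58 to 40.9, 1.51 to 22.4, 0.450 to 13.7 and 4.60 to 25.6. All 4 ranges overlapped.

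In the other direction, Contig2506 had the largest fitted SM minus FM difference, at 1.76 ± 0.73 (SE), and an SR minus FR difference of -1.69 ± 0.83 (SE) on the log2 scale. Its median-scaled CPM ran from 0.0433 to 35.4 in FM (median 5.30), 1.31 to 58.9 in SM (median 36.1), 2.89 to 28.9 in FR (median 12.1) and 1.64 to 9.39 in SR queens (median 4.80). The lowest SM value was that of replicate 25 and the lowest FR value that of replicate 37. Contig1060 (medians of 11.5 in FM, 39.0 in SM, 29.7 in FR and 14.7 in SR) and Contig2932 (medians of 14.5, 33.9, 58.3 and 16.2) had the same 2 queens at the bottom of the SM and FR ranges. Contig2932 had the next largest SR minus FR difference of that direction, at -1.54 ± 0.51 (SE).

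The 4 most abundant of the 100 contigs were Contig3447, Contig74, Contig2044 and Contig834. Contig2044 differed widely between groups, as given above, and the other 3 had smaller differences. Contig74 had 1435 ± 224 (SD, n = 9) median-scaled CPM in FM, 1315 ± 124 (SD, n = 8) in SM, 1249 ± 121 (SD, n = 8) in FR queens and 1431 ± 44.7 (SD, n = 8) in SR queens. Contig3447, on the other side, had 1431 ± 103 in FM, 1477 ± 48.9 in SM, 1508 ± 33.0 in FR and 1415 ± 62.9 in SR queens, and Contig834 had 1140 ± 111, 1238 ± 77.6, 1266 ± 89.8 and 1147 ± 68.9. Such contigs entered the list with small gaps because their spread between queens was small as well.

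Each queen was given 2 scores, the mean standardised level over the 52 contigs and over the 48 contigs, each contig scaled to a mean of 0 and an SD of 1 over the 33 libraries. The scores rest on the chosen contigs, so the group averages are again a description. What the choice did not fix is which queens depart from their group. All 8 SR queens were above 0 on the first score, from 0.345 to 0.865, and below 0 on the second, from -0.871 to -0.300. FM queens were spread from -0.735 to 1.35 on the first score, with 6 of 9 above 0, and from -1.79 to 0.755 on the second, with 6 of 9 below 0. SM queens ran from -1.03 to 0.287 on the first score, with 6 of 8 below 0, and FR queens from -1.09 to 0.254, also with 6 of 8 below 0. On the second score 6 of 8 SM and 7 of 8 FR queens were above 0.

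**Figure D4:**
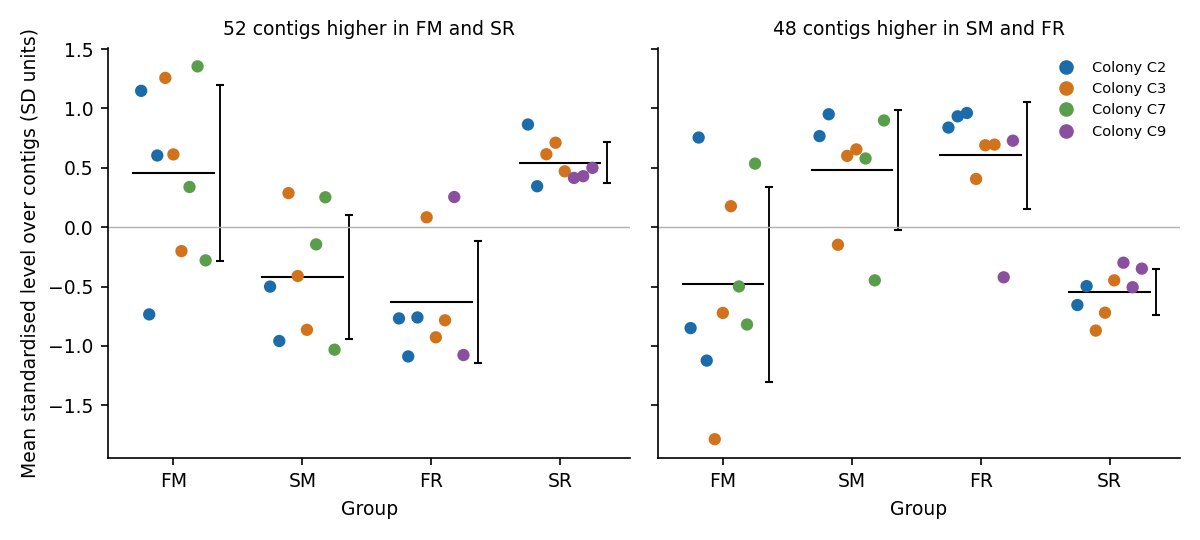
The mean standardised level of the 52 contigs higher in FM and SR (left) and of the 48 higher in SM and FR (right), in SD units, 1 point per queen coloured by colony, with the group mean as a line and its SD as the bar beside it. SR queens sit close together, from 0.345 to 0.865 on the left, while FM queens run from -0.735 to 1.35.

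The same queens departed on both scores, in opposite directions. FM replicate 4, of colony C2, had scores of -0.735 and 0.755, FM replicate 10, of C3, had -0.202 and 0.177, and FM replicate 15, of C7, had -0.280 and 0.535, all on the SM side. SM replicates 19, of C3, and 25, of C7, had 0.287 and -0.149, and 0.252 and -0.448, on the FM side. Among FR queens, replicate 37, of C9, had 0.254 and -0.422, on the SR side, and replicate 32, of C3, had 0.0830 with a second score of 0.406, which kept the sign of its group. The departing queens came from all 4 colonies. The estimated age was 21, 18 and 10 in these FM queens, 14 and 20 in these SM queens, where 20 is the highest, and 93 and 91 in these FR queens, where 91 is the lowest.

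After group means were removed, the 100 contigs still varied along a common axis. The first principal component of these within-group deviations, each contig scaled to equal variance, held 41.0% of their variance, against 22.6% for all 3924 eligible contigs. The sign of a component is arbitrary and was set to match the direction of most contigs. On that component 98 of the 100 contigs loaded with the sign of their direction, all but Contig2623 and Contig3270. With the 4 groups pooled, queens high for their group in the 52 contigs thus tended to be low in the 48. Group means do not enter this measure, but the choice of contigs favoured small within-group SDs and the same libraries supplied both, so the share is given with no test.

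Taken group by group, the share stood above that of the eligible contigs by a wide margin in FM and SM queens and by little in FR and SR queens. It was 51.9% for the 100 contigs within FM queens, against 26.6% over the eligible contigs, and 98 contigs loaded with their direction. The share was 44.9% against 29.2% in SM queens, with 92 contigs. In FR queens it was 45.6% against 44.2%, so that the chosen contigs were no more concentrated than the rest, with 96 contigs loading with their direction. In SR queens it was 26.9% against 25.6%, and 65 contigs loaded with their direction and 35 against it. The arbitrary sign of the component was set anew in each group, to match the direction of most contigs. The count loading with their direction could therefore not be the smaller one in any group, and nothing is read from a majority alone. Components of 8 or 9 queens each are estimated from few points, and the difference between groups was not tested.

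The share of reads taken by the contig with the highest mean CPM over all libraries, which the rule left out, followed the scores in some queens and not in others. It was 0.116% to 11.9% in FM (median 2.77%), 0.0728% to 11.3% in SM (median 1.61%), 0.00794% to 4.78% in FR (median 0.262%) and 0.0655% to 11.2% in SR queens (median 6.84%). SM replicates 19 and 25 had the highest SM shares, at 6.17% and 11.3%, and FR replicates 32 and 37 the highest FR shares, at 4.78% and 1.64%. FM replicates 4 and 10 had the lowest FM shares, at 0.116% and 0.556%. FM replicate 15 and SR replicate 47 went against this, the first with 4.35% and the scores of an SM queen, the second with 0.0655% and scores of 0.415 and -0.300. SM replicates 17 and 26, at 2.17% and 1.71%, were above the SM median. Their first score minus the second was the lowest of SM queens, at -1.91 and -1.93. FR replicate 38, at 0.923%, was above the FR median, and its first score minus the second was -1.81. No measure of association was computed. The levels above were scaled to the library median, and the part of this contig in the scores was not tested.

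**Figure D5:**
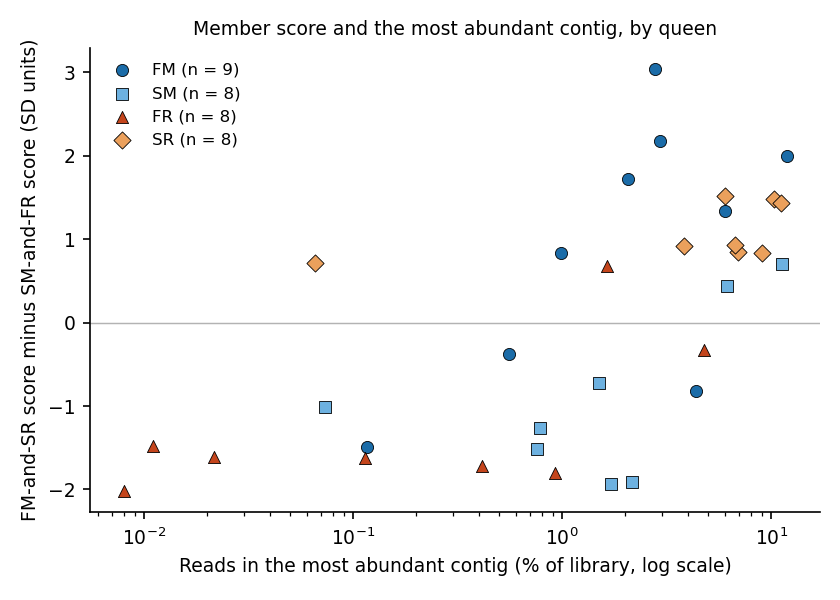
The first score minus the second, in SD units (y axis), against the percent of a library's reads in the contig with the highest mean CPM (x axis, log scale), 1 point per queen with a marker for each group. Queens above 0 have 0.986% or more of their reads in that contig, except SR replicate 47 at 0.0655%, and the 2 queens below 0 at over 4% are FM replicate 15 and FR replicate 32.

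Differences within a colony had the direction of the pooled ones in nearly all of the 100 contigs. Only colonies C2 and C3 hold all 4 groups, with 2 or 3 queens in each. In C2, 99 of the 100 contigs had both the SM minus FM and the SR minus FR difference in their own direction, and in C3, 97 had. Opposite signs of the 2 differences, whichever way round, were common in any case, at 59.7% of all eligible contigs in C2 and 45.7% in C3. That share is not for a set direction, and these queens are part of the means that chose the contigs. In C7, which holds only FM and SM queens, 94 contigs kept the direction of SM minus FM. In C9, which holds only FR and SR queens, 88 kept that of SR minus FR, 46 of the 52 and 42 of the 48. The C7 and C9 queens are also part of the means that chose the contigs. No share over all eligible contigs is given for these 2 colonies.

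The size of the differences varied by colony. The median SM minus FM difference of the 52 contigs was -0.28 on the log2 scale in C2, -0.22 in C3 and -0.20 in C7, and that of the 48 contigs 0.35, 0.27 and 0.16. The median SR minus FR difference of the 52 contigs was 0.35 in C2, 0.32 in C3 and 0.25 in C9, and that of the 48 contigs -0.34, -0.38 and -0.12. C9 held FR replicate 37 as 1 of its 2 FR queens.

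The quasi-likelihood test of edgeR, fitted over all 5606 contigs that passed its filter with group and colony as terms, tested all of the 100. A contig counted as called at a Benjamini-Hochberg adjusted p under 0.05 over the whole table. For the difference of the 2 outcome effects, SR minus FR less SM minus FM, 56 of the 100 were called, 35 of the 52 and 21 of the 48, where 7.26% of all contigs were. This is the contrast the choice was made on, so nothing is read from that count. DESeq2 called 88 (16.2% of all contigs), limma voom with sample quality weights 98 (43.7%), and edgeR with no filter on low counts 25 (1.5%). The count also moved when single queens were left out. For fits without 1 queen, here and below, the share over all contigs is not given. Whether the whole table moved alike was therefore not tested. Without FR replicate 38 or SR replicate 39 the count was 0, and leaving out any of SM replicate 22, FM replicate 2 and FR replicate 33 brought it to 2. It was 3 without SM replicate 26 or FR replicate 28. It was 8, 9, 11, 14, 15, 16 and 22 without SR replicate 40, FR replicate 36, FM replicate 5, SR replicate 43, SM replicate 17, FR replicate 27 and SR replicate 44. It was 28, 31, 31, 33, 33 and 36 without FM replicate 14, FM replicate 9, SM replicate 21, FR replicate 31, SR replicate 45 and SM replicate 16. Without FM replicate 4 or FR replicate 37, which departed from their groups, it was 90. It was 0 without the queens of colony C2 (0% of all contigs) and 0 without those of C3 (0%). With the queens of colonies C2 and C3 alone it was 60, for which the share over all contigs is not given.

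SR minus FR, one of the differences that chose the contigs, was called for 53 of the 100, where 29.5% of all contigs were called. DESeq2 called 59 (34.5% of all contigs) and limma voom 87 (58.1%). They were 37 of the 52, all higher in SR, and 16 of the 48, all lower, and 44 of the 53 were also called for the difference of effects. The SR minus FR count was 22 without SR replicate 39, 28, 29 and 31 without FR replicates 36, 38 and 28, 31 without FR replicate 33 or SR replicate 40, and 35 without SR replicate 43. Leaving out colony C2 or C3 brought it to 0, and the share of all contigs to 0% as well. On the value scale the SR and FR ranges did not overlap in 1 of the 100 contigs, Contig4577, where 1.1% of eligible contigs had such ranges.

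SM minus FM, also a difference that chose the contigs, gave 0 calls among the 100, where 0% of all contigs were called by edgeR. At an unadjusted p under 0.05 there were 56, 20 of the 52 and 36 of the 48, where 10.1% of all contigs were. DESeq2 called 0 of the 100 (0.0179% of all contigs) and limma voom 0 (0% of all contigs). The SM and FM ranges overlapped in all 100, as they did in the other eligible contigs, of which 0% had separate ranges. Without FM replicate 15, one of the queens that departed from its group, edgeR called 2 of the 100.

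FR minus FM, which sets side by side the 2 failed groups of different stages, gave 24 calls, 18 lower in FR among the 52 and 6 higher among the 48, where 17.3% of all contigs were called. DESeq2 called 41 (23% of all contigs), limma voom 69 (44.1%), and edgeR with no colony term 37 (20.5%). Of the 24 contigs, 20 were also called for SR minus FR, a comparison that shares the FR queens. The FR minus FM count was 9, 10 and 13 without FR replicates 36, 33 and 27, and 15 and 14 without FR replicates 28 and 31. Leaving out FM replicates 2 and 5, each alone, gave 12 and 14. Leaving out FR replicate 37 gave 40, and leaving out FM replicates 10 and 4, each alone, gave 37 and 49.

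SR minus SM gave 0 calls with edgeR, where 0% of all contigs were called, and 42 of the 100 at an unadjusted p under 0.05, where 10.6% were. DESeq2 called 5 (0.872% of all contigs), limma voom 41 (7.65%), and edgeR with no colony term 2 (0.642%), so the count depends on the tool. The 2 remaining pairs are those the rule brought together. SR minus FM gave 0 calls with edgeR, where 0.0535% of all contigs were called, 0 at an unadjusted p under 0.05 (10.2%), and 0 with DESeq2 (0.653%) and with limma voom (0.0892%). FR minus SM gave 0 calls with edgeR, where 17.7% of all contigs were called, 2 at an unadjusted p under 0.05 (34.4%), 1 with DESeq2 (23%) and 12 with limma voom (44.7%). The edgeR count for FR minus SM rose to 1 when SM replicate 17, FR replicate 37 or FM replicate 14 was left out. These low counts follow from a rule that asked for similar means in each pair, and they do not show that the groups are alike.

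Colony and age were not used to choose the contigs, apart from the preference for a small within-group SD. That preference works against contigs that differ widely by colony or age within a group. Low counts of calls for colony and age may follow from it, and they are given as a description. Between colonies C2 and C3, the quasi-likelihood test of edgeR called 0 of the 100, where 2.19% of all contigs were called. At an unadjusted p under 0.05 there were 12, close to the 13.6% of all contigs. DESeq2 called 0 (3.7% of all contigs), limma voom 1 (4.03%), and edgeR with median centring as scaling 1 (2.34%). Of the 12, 6 were lower in C2, all among the 52, and 6 higher in C2, all among the 48. Over all contigs, 384 were higher in C2 and 376 lower at that p. The 100 contigs varied along a common axis within groups, so the 12 are not independent and nothing is read from their split. Contig749 had the lowest p of those higher in C2, with a log2 difference of 0.16 ± 0.05 (SE, edgeR adjusted p = 0.129), followed by Contig3319 with 0.68 ± 0.23 (SE, edgeR adjusted p = 0.137). Contig5808 had the lowest p of those lower in C2, with -0.45 ± 0.15 (SE, edgeR adjusted p = 0.118), followed by Contig6034 with -0.37 ± 0.14 (SE, edgeR adjusted p = 0.178). None of these 4 passed the threshold.

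Those 4 contigs differed between groups in the way the list asks. Contig3319 had 127 ± 77.9 (SD, n = 9) median-scaled CPM in FM, 201 ± 102 (SD, n = 8) in SM, 267 ± 112 (SD, n = 8) in FR queens and 107 ± 11.1 (SD, n = 8) in SR queens. Its SR queens lay within 93.8 to 125, while its FR queens ran from 95.7, in replicate 37, to 454. Contig5808 had 9.14 ± 3.22, 6.51 ± 1.53, 5.34 ± 1.49 and 9.23 ± 2.02 in FM, SM, FR and SR queens. Contig749 (means of 158, 173, 172 and 155) and Contig6034 (means of 34.2, 25.2, 27.1 and 32.8) showed smaller differences, and their ranges overlapped in all 4 groups.

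Age before hibernation, as a slope within FM and SM queens with group and colony as terms, was called for 2 of the 100, where 1.48% of all contigs were called. At an unadjusted p under 0.05 there were 14, where 15.8% of all contigs were, so the 100 contigs stood at the level of the table. Contig4564, higher in FM and SR, rose by 0.09 ± 0.02 (SE) on the log2 scale per unit of estimated age (edgeR adjusted p = 0.031). Its highest value, 32.1 median-scaled CPM, was that of FM replicate 6, which has the highest estimated age of that stage, at 27, and the next FM queen had 12.3. Contig2616, higher in SM and FR, fell by 0.10 ± 0.02 (SE) per unit (edgeR adjusted p = 0.0384), and FM replicate 6 had its lowest FM value, at 5.17. DESeq2 called 6 of the 100 for this slope (4.69% of all contigs) and limma voom 0 (0.0535%). The edgeR count moved with single queens: 0 contigs were called when FM replicate 6 or 9 was left out, 1 when SM replicate 21, SM replicate 25 or FM replicate 15 was, and 4 and 5 when FM replicates 2 and 14 were, each alone. Contig3807, with a slope of 0.06 ± 0.02 (SE, edgeR adjusted p = 0.108), and Contig5827, with -0.06 ± 0.01 (SE, edgeR adjusted p = 0.0522), did not pass.

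Age after hibernation, as a slope within FR and SR queens, was called for 0 of the 100, where 0% of all contigs were called. At an unadjusted p under 0.05 there were 15, against 8.85% of all contigs, 12 among the 52 with a slope below 0 and 3 among the 48 with a slope above 0. Over all contigs, 277 had a slope below 0 and 219 above 0 at that p. These 15 contigs are not independent either, and nothing is read from their split. DESeq2 called 0 (0.0178% of all contigs) and limma voom 0 (0%). Contig3911 and Contig4957 had the lowest p of those with a slope below 0, at -0.12 ± 0.04 (SE, edgeR adjusted p = 0.324) and -0.05 ± 0.02 (SE, edgeR adjusted p = 0.324) per unit. Contig2357 and Contig2617 had those above 0, at 0.07 ± 0.03 (SE, edgeR adjusted p = 0.472) and 0.13 ± 0.06 (SE, edgeR adjusted p = 0.524). FR queens ran from 91 to 102 in estimated age and SR queens from 94 to 97, and the youngest FR queens, replicates 32 at 91 and 37 at 93, are the 2 that stood nearest to SR queens in the first score. Age and the departure of these 2 queens cannot be told apart in 8 FR queens.

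The list itself depends on how the level is made and on the queens included. Applied to group medians in place of means, the rule shared 51 of its 100 contigs with the list. It shared 62 with no median centring, 56 without colony C2, 51 without colony C3 and 74 to 97 when 1 queen was left out.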

How the data were processed

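Per the labels' protocols, mRNA of 33 single brains was captured with oligo-dT beads and sequenced from TruSeq libraries on an Illumina instrument. FastQC, TopHat, SAMtools and edgeR are named in the submitters' processing notes, with neither version nor role. Not given in the sources used here were the build, the annotation and the program that counted reads. Per the file headers, the authors deposited raw read counts for 10672 contigs, of which 1799 had no read, and a table of scaled scores, used for 1 alternative. The deposited scores equal the counts centred and divided by the SD over contigs in each library and then over libraries in each contig, to within 7.77e-15. A table named for clustering was not used.

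The contigs were found on log2(CPM + 1) by the rule given in the text. The contigs, the lists and the tests were chosen with earlier results of these data known. Low counts were removed with filterByExpr (minimum count 10, by group), and the rest scaled with TMM and fitted with group and colony by the robust quasi-likelihood test of edgeR 4.0.16 in R 4.3.3, with Benjamini-Hochberg adjustment. Age entered as separate slopes before and after hibernation. The scripts were first tested on simulated counts. Each SE was taken as the log2 difference over the root of its F statistic. Each queen is a separate animal, some from the same colony. Contigs to which DESeq2 gave no adjusted p were left out of its shares. DESeq2 1.42.0 and limma 3.58.1 were alternatives, as were other scalings, filters, colonies left out and queens left out; for 4 comparisons of groups, leaving out queens was added after the data were seen.

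Named contigs are, in each direction, the 2 with the highest ratio, the largest SM minus FM and SR minus FR differences and the highest mean CPM, those with the lowest p for colony and age, and the last contig inside and the first outside the list. Contig4577, Contig2623 and Contig3270 were named after their values were seen.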

Additional observations from a re-analysis of the deposited data

Results flagged for a closer look

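Single queens stood apart from their groups in 19 of 116 sets of values, each set being a named contig or score in 1 group. The gap to the nearest queen was above Dixon's critical value for that number of samples, and the sets share queens. Chance passes that value in about 1 in 20 sets of normally distributed values. Contig levels were searched as CPM and not on a log scale, and every contig value flagged was the highest of its set. That rate may therefore not hold here, and no excess of such queens is read from the count. FR replicate 37 was the queen concerned most often. Its second score was -0.422, where the next FR queen had 0.406, and it had the highest FR level of Contig9314 (13.7 median-scaled CPM, next 5.86), Contig44 (1.35, next 0.0920), Contig2776 (39.7, next 12.8), Contig4564 (11.0, next 6.56) and Contig1405 (421, next 363). FR replicate 32 had the highest FR level of Contig1491 (15.3, next 11.1) and Contig6034 (46.2, next 28.6).

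Among SM queens, replicate 25 was high in Contig9314 (22.4, next 9.83) and Contig3807 (22.5, next 14.5), replicate 19 in Contig44 (9.94, next 2.14) and replicate 17 in Contig3319 (430, next 239). Among FM queens, replicate 4 was high in Contig1058 (283, next 210), replicate 6 in Contig4564 (32.1, next 12.3), replicate 15 in Contig2616 (32.5, next 18.3) and Contig2617 (21.3, next 12.0), and replicate 14 in Contig4957 (189, next 135). Among SR queens, replicate 49 was high in Contig2932 (37.3, next 20.0) and replicate 45 in Contig2357 (361, next 249).

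The outcome effect differed between the stages in 19 of the 27 named contigs at an edgeR adjusted p under 0.05, where it did in 7.26% of all contigs. The difference is SR minus FR less SM minus FM on the log2 scale in the edgeR fit. For 18 of them this is the difference they were selected on, so the values are a description. Contig1405, with 0.27, is the contig just outside the list. The same rule parted its group means and ranked it, so its value is a description as well. The difference was 1.20 in Contig2044, 0.68 in Contig1491, 3.02 in Contig9314, 2.81 in Contig2776, 0.35 in Contig74, 1.29 in Contig5808 and 0.78 in Contig6034. It was 1.62 in Contig4564, 1.10 in Contig3807, 1.00 in Contig5827, 0.91 in Contig3911 and 0.45 in Contig4957. In the other direction it was -0.72 in Contig1058, -0.40 in Contig4523, -1.82 in Contig3319, -1.66 in Contig2616, -0.70 in Contig2357 and -1.62 in Contig2617.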

How the results depend on the processing

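Of the 100 contigs, the rule shared 62 with no median centring, 51 with group medians, 56 without colony C2, 51 without colony C3, 51 with colonies C2 and C3 alone and 22 on the deposited scaled scores, and 74 to 97 without 1 queen. The scaled scores are divided by an SD of counts that ran from 20809 to 64363 over the libraries. The calls for the difference of outcome effects, 56 with edgeR, were 88 with DESeq2, 98 with limma voom with quality weights, 25 with no filter on low counts, 0 without colony C2 and 0 without C3, and 0 to 90 without 1 queen. Over all contigs that share was 7.26% with edgeR and 43.7% with limma voom. SR minus FR calls were 87 with limma voom, 0 without C2 and 0 without C3, and 22 to 66 without 1 queen. FR minus FM calls were 41 with DESeq2, 69 with limma voom and 37 with no colony term, and 9 to 49 without 1 queen. SR minus SM calls were 5 with DESeq2, 41 with limma voom and 2 with no colony term. FR minus SM calls were 1 with DESeq2 and 12 with limma voom, and 0 to 1 without 1 queen, and SM minus FM calls were 0 to 2 without 1 queen. Colony calls were 1 with limma voom and 1 with median centring as scaling. Calls for age before hibernation were 6 with DESeq2 and 0 with limma voom, and 0 to 5 without 1 queen. The first component held 45.9% of the variance of deviations from group by colony means, and 37.0% to 42.2% without 1 queen. Among the values of named contigs under alternatives, 106 kept direction and side of the threshold, 22 lost the call, 10 gained it and 0 reversed. Except for fewer queens or other contigs tested, the cause was not tested. No paired analysis was possible because the groups share no replicate numbers. Contigs near 1 CPM rest on few reads, and 8 or 9 queens per group limit the precision.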
